A study of Mus musculus with 6 samples.

Results

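Neuropeptide precursors were examined in motor neurons (MNs) differentiated from mouse embryonic stem cells (mESCs). The 10 genes were chosen by name: Cartpt, Calca, Calcb, Sst, Npy, Gal, Tac1, Vip, Penk and Pdyn. All 10 were found among the 34433 gene symbols of a table of 41945 genes and loci, and each had a single entry. The samples were 3 of Hb9 control MNs, labelled wildtype and described in the study's methods as SMN2+/+;mSmn+/+, and 3 of A2 SMA MNs, labelled SMN2+/+;mSmn-/-, both on the FVB/N background. A2 is a model of spinal muscular atrophy (SMA) that lacks mouse Smn and carries the human SMN2 transgene, which yields little full-length SMN protein. Both genotypes received 1 µM retinoic acid and 1 µM Smoothened agonist for 5 days as embryoid bodies, and cells expressing green fluorescent protein from an Hb9 promoter reporter were collected by FACS, so the gate follows that promoter and not the mature MN. Each genotype is 1 mESC line, so genotype and cell line cannot be told apart.

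The authors' values are in FPKM, fragment counts scaled to transcript length and library size, with 1 pooled value per genotype. There is thus no replicate check of any difference, no SD or p-value is given, and all statements compare the pooled values. The labels do not say whether the samples came from separate cultures. Smn1, the disrupted gene, was at 137 FPKM in the Hb9 control and 5.26 FPKM in A2 SMA. Mnx1, which encodes Hb9 and whose promoter drives the reporter, was at 41.2 and 44.2 FPKM. Read depth per sample was not used here, and the pooled values do not show how many reads lie behind them. For scale, the lowest value above 0 among 555 loci of 1000 to 1100 bp was 0.0328 FPKM in the Hb9 control and 0.0333 FPKM in A2 SMA.

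The labelled cell type was compared with its markers. Of 11 MN markers, 9 were at least 2-fold lower in A2 SMA and none was at least 2-fold higher. Among all genes above 0 FPKM in both genotypes, 24.5% were at least 2-fold lower and 8.41% at least 2-fold higher. Chat, which encodes the enzyme that makes acetylcholine and is a defining gene of the mature MN, was at 15.5 FPKM in the Hb9 control and at 0.344 FPKM in A2 SMA, although both are labelled as MNs. The paper reports similar shares of reporter-positive cells in both lines, and staining for Hb9 and Islet-1 in plated cells of both. After plating and growth, it describes very few reporter-positive neuron-like cells for A2 and an abundance of reporter-positive cells for Hb9. The paper also cites earlier work in which SMN deficiency left the level of ChAT protein unaltered. It names the same work for its other pair of lines, which carry no reporter. Mnx1 was not lower. All 8 pluripotency markers were at least 2-fold higher in A2 SMA, so the sorted populations differed in more than the precursors. In bulk RNA, fewer cells of a type and less RNA per cell cannot be told apart.

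Neuropeptides are made as larger precursor proteins that enter the secretory pathway, are cleaved at pairs of basic residues by prohormone convertases, are often amidated, and are stored in dense-core granules until released. They act on G protein-coupled receptors beside the classical transmitters. In the spinal cord, calcitonin gene-related peptide (CGRP) is well known in somatic MNs, where it acts at the neuromuscular junction, and several other peptides mark visceral motor neurons, sensory neurons and interneurons.

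Of the 6 precursors that reached 1 FPKM in either genotype, Cartpt, Sst, Gal and Npy were far lower in A2 SMA MNs, and Penk and Calca were not. Cartpt was 38.7-fold lower, Sst 12.9-fold, Gal 7.61-fold and Npy 7.41-fold lower. Calca was at nearly the same level in both genotypes. Penk was 1.53-fold lower. Pdyn, Tac1, Calcb and Vip were under 1 FPKM in both genotypes, with ratios that depend on how low values are treated.

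Of the 10 precursors, 9 had the lower value in A2 SMA MNs, as did 64.9% of the 20595 genes above 0 FPKM in both genotypes. At least 2-fold lower were 6 of the 10, of which Calcb and Vip were among those under 1 FPKM. Without a limit on FPKM, 24.5% of the 20595 genes were at least 2-fold lower and 8.41% at least 2-fold higher. The calls of Calcb and Vip were lost with a pseudocount of 0.1 FPKM and when ratios were centred on the median gene, which left 4 of the 10 at least 2-fold lower. The median log2 ratio (A2 SMA over Hb9 control) was -1.13 over the 10 precursors and -0.31 over those 20595 genes. The median of the 10 lies midway between Calcb and Vip, and was -0.84 with centring, -0.63 with a pseudocount of 0.1 FPKM and -0.31 with a pseudocount of 1 FPKM. A limit of at least 1 FPKM in either genotype was passed by 6 of the precursors. At least 2-fold lower were 4 of these 6, and none was at least 2-fold higher, against 22.4% lower and 6.83% higher among the 14926 genes past the same limit. Because a precursor can pass the limit through the genotype in which it is high, the count over these 6 is a description of them. Higher genes made up 23.4% of the genes past 2-fold (3343 lower and 1020 higher), and 38.8% when ratios were centred on the median gene (2461 lower and 1558 higher). The median log2 ratio of the 14926 genes was -0.29, and for the 10 precursors ratios relative to this median gene are given beside the plain ones below.

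Sst encodes preprosomatostatin, the source of an inhibitory peptide of interneurons and visceral neurons. It was the most abundant of the 10 in the Hb9 control, at 25.0 FPKM, and was at 1.94 FPKM in A2 SMA. The log2 ratio was -3.68, or -3.39 relative to the median gene. Of the 14926 genes, 356 (2.39%, Sst included) had a ratio as low. The locus lies at chr16:23889667-23890930 of the mouse genome build NCBI m37.

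Cartpt encodes the cocaine- and amphetamine-regulated transcript peptides, which in the spinal cord are known from sympathetic preganglionic neurons. It had 17.5 FPKM in the control line and 0.453 FPKM in A2 SMA, which is 2.59% of the control level. Its log2 ratio of -5.27 (-4.98 relative to the median gene) was the lowest of the 10, and 52 of the 14926 genes (0.348%, Cartpt included) were as low. The level in A2 SMA MNs is a low one, and with a pseudocount of 1 FPKM the log2 ratio was -3.67. The locus lies at chr13:100668439-100670800, on the chromosome of Smn1, and spans 2.36 kb, against 11.7 kb for the gene in RefSeq.

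Gal encodes preprogalanin, the source of a peptide known to increase in injured neurons. It had almost the same level as Cartpt in the control line, 17.3 FPKM, but 2.28 FPKM in A2 SMA. The log2 ratio was -2.93 (-2.64 relative to the median gene) at chr19:3409919-3414472. Cartpt and Gal, which were alike in the control line, thus differed in A2 SMA MNs, where Gal stood at 13.1% of its control level.

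Npy encodes the precursor of neuropeptide Y, a peptide of sympathetic neurons and of inhibitory interneurons. Its level was 3.02 FPKM in the control line and 0.408 FPKM in A2 SMA, with a log2 ratio of -2.89 (-2.60 relative to the median gene) at chr6:49772709-49779506. The ratio nearly equalled that of Gal at a lower level. With a pseudocount of 1 FPKM the log2 ratio of Npy was -1.51.

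Calca encodes both calcitonin and αCGRP, which arise from alternative splicing of the same transcript, and the gene-level value does not separate them. The locus spans 4.88 kb, against 10.9 kb for the gene in RefSeq. Its level was 14.5 FPKM in the control line and 15.2 FPKM in A2 SMA, at chr7:121774994-121779871. The log2 ratio was 0.07, or 0.36 relative to the median gene, and of the 10 precursors it alone was higher in A2 SMA by either measure. In that line it was the most abundant of the 10, ahead of Penk. Calca made up 17.6% of the summed FPKM of the 10 precursors in Hb9 control MNs and 64.8% in A2 SMA MNs, where the sum was 23.5 FPKM against 82.5 FPKM in the control. Sst, Cartpt and Gal together made up 72.6% and 19.9%. Without Calca, the sums were 67.9 and 8.27 FPKM.

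Calcb encodes βCGRP and lies 82.3 kb from Calca, at chr7:121862157-121866879. Its level was 0.182 FPKM in the control line and 0.0782 FPKM in A2 SMA, a log2 ratio of -1.22 (-0.93 relative to the median gene). The exons that encode the mature peptides of Calca and Calcb are closely similar, so reads there may have been divided between these genes and their separate levels are uncertain.

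Penk and Pdyn encode opioid precursors, the sources of enkephalins and dynorphins. Penk had 4.19 FPKM in the control line and 2.74 FPKM in A2 SMA, which gives a log2 ratio of -0.61 (-0.32 relative to the median gene). The Penk locus at chr4:4060678-4115850 spans 55.2 kb in the assembled annotation, whereas RefSeq gives the gene 5.28 kb, so its value may hold reads of other transcripts. Pdyn, at chr2:129512301-129525580, was at 0.323 and 0.191 FPKM, a log2 ratio of -0.76 (-0.47 relative to the median gene).

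Tac1 encodes the precursor of substance P and neurokinin A, which are best known from sensory neurons. Its level was 0.268 FPKM in the control line and 0.146 FPKM in A2 SMA (chr6:7505071-7512973), a log2 ratio of -0.88 (-0.59 relative to the median gene). Vip encodes the precursor of vasoactive intestinal peptide and was the lowest of the 10, at 0.0812 and 0.0397 FPKM (chr10:4698927-4707323), a log2 ratio of -1.03 (-0.74 relative to the median gene). The A2 SMA value of Vip is near the lowest value above 0 given for loci of about 1 kb. Cuffdiff, the program that compared the genotypes, gave Pdyn, Tac1, Calcb and Vip the status NOTEST, which it assigns to genes with too few fragments for its test. With a pseudocount of 1 FPKM their log2 ratios lay between -0.15 and -0.06.

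The order of the levels was Sst, Cartpt, Gal and Calca in Hb9 control MNs, followed by Penk and Npy, then Pdyn, Tac1, Calcb and Vip. In A2 SMA MNs it was Calca, Penk, Gal and Sst, followed by Cartpt and Npy, with the other 4 in the same order as in the control. Without replicate values, it was not tested which neighbours in either order differ. The genes with the pair of values most like that of Sst, by Euclidean distance of log2 FPKM over the 2 genotypes, were Ildr2 (24.6 and 1.92 FPKM, distance 0.0326), Sema6d (24.6 and 2.15 FPKM, distance 0.145) and St8sia2 (23.2 and 1.82 FPKM, distance 0.149). A likeness over 2 values is a weak one.

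**Figure D1:**
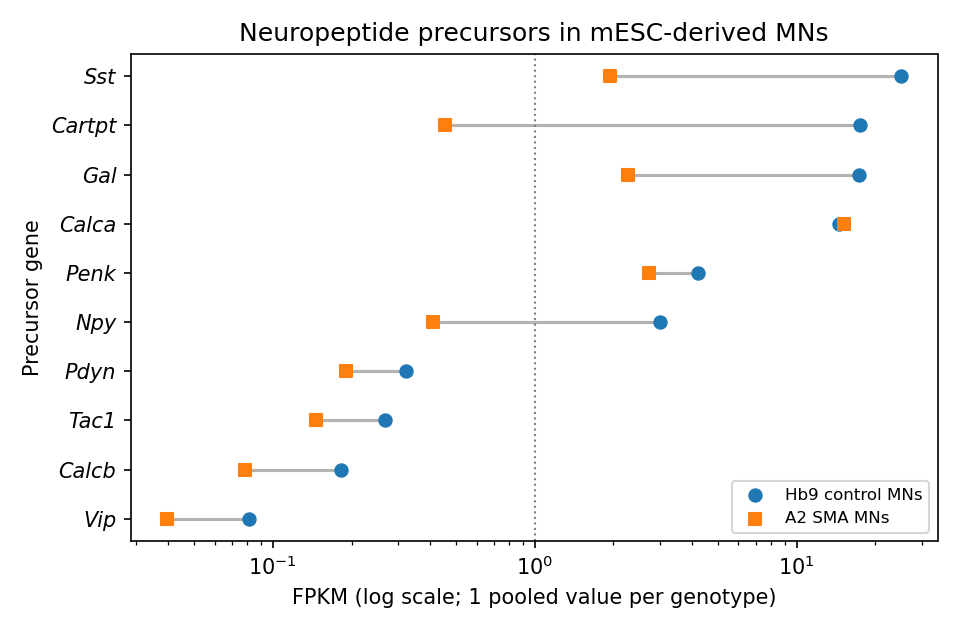
FPKM of the 10 neuropeptide precursors on a log scale, with circles for Hb9 control MNs, squares for A2 SMA MNs, 1 pooled value per genotype without error, and a dotted line at 1 FPKM. Cartpt, Sst, Gal and Npy were 7.41-fold to 38.7-fold lower in A2 SMA MNs, the Calca symbols nearly coincide at 14.5 and 15.2 FPKM, and Pdyn, Tac1, Calcb and Vip lie under 1 FPKM.

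Other precursor genes were taken from a list of 48, of which 33 were above 0 FPKM in both genotypes and 14 reached 1 FPKM in either. At least 2-fold lower were 10 of the 33 (5 of the 14) and at least 2-fold higher were 4 (2 of the 14). The shares of the 33 are near those of all genes without a limit (24.5% and 8.41%) and are no result about the list. Past the limit of 1 FPKM, 22.4% of all genes were at least 2-fold lower and 6.83% at least 2-fold higher. Whether the 14 differ from these was not tested. With a pseudocount of 0.1 or 1 FPKM 1 of the 14 was at least 2-fold higher, and with centring 4 were. The median log2 ratio was -0.58 over the 33 and -0.60 over the 14. Ucn3, Nms, Oxt, Galp, Gcg and Prlh were listed at 0 FPKM in both genotypes.

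Adcyap1, Pomc and Pnoc had log2 ratios as low as that of Sst. Adcyap1, which encodes the precursor of PACAP, a peptide related to VIP, had 18.2 FPKM in the control line and 0.671 FPKM in A2 SMA (log2 ratio -4.76). Pomc, the source of β-endorphin and melanocortins, was at 49.1 and 2.86 FPKM (-4.10), a level above that of each of the 10 precursors in the control. Pnoc, the precursor of nociceptin, was at 2.22 and 0.134 FPKM (-4.05). Adm, which encodes adrenomedullin, a vasodilator of the CGRP family, differed less, at 21.7 and 7.11 FPKM (-1.61).

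The opposite direction was found for Sct, the secretin gene, with 4.06 FPKM in the control line and 13.0 FPKM in A2 SMA (log2 ratio 1.68), and for Trh, the precursor of thyrotropin-releasing hormone, at 4.97 and 10.05 FPKM (1.01). Nmb had the highest value in the list, 216 and 122 FPKM (-0.82), but its locus is shared with Sec11a, a gene of the signal peptidase, and the value cannot be assigned to Nmb.

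Most genes for the processing and storage of neuropeptides were lower in A2 SMA MNs. All 25 genes of the list were above 0 FPKM in both genotypes, and 24 of them were lower, as were 64.9% of all such genes. Of the 25, 19 were at least 2-fold lower and 1 at least 2-fold higher, where 24.5% and 8.41% of all genes were. The median log2 ratio was -1.43. Of the 22 that reached 1 FPKM in either genotype, 18 were at least 2-fold lower, where 22.4% of all genes past that limit were. The median of the 22 was -1.68.

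The granins, acidic proteins of the dense-core granule, did not differ equally. Chgb, chromogranin B, had 42.9 FPKM in the control line and 1.93 FPKM in A2 SMA (log2 ratio -4.47). Scg3, secretogranin III, was at 32.1 and 1.65 FPKM (-4.28). Scg2, secretogranin II, had nearly the same ratio, at 21.4 and 1.10 FPKM (-4.28). Chga, chromogranin A, was at 19.4 and 7.22 FPKM (-1.43), which is the median of the list.

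Among the enzymes, Cpe, the carboxypeptidase that trims basic residues after cleavage, was at 69.1 and 9.87 FPKM (log2 ratio -2.81). Pam, which amidates peptides, was at 58.0 and 21.6 FPKM (-1.42). Scg5, which encodes the chaperone 7B2 of the convertase PC2, was at 43.2 and 3.42 FPKM (-3.66). The convertases themselves differed unequally, with Pcsk2 (PC2) at 3.64 and 0.402 FPKM (-3.18) and Pcsk1 (PC1/3) at 1.36 and 1.01 FPKM (-0.43). Cpd, another trimming carboxypeptidase, was at 34.99 and 14.0 FPKM (-1.33). Furin, the convertase of the constitutive pathway in all cells, was at 23.8 and 22.1 FPKM (-0.11), and Cpz, a carboxypeptidase of the extracellular matrix, was at 0.996 and 2.043 FPKM (1.04). The call of Cpz, the only higher one of the list, was lost with either pseudocount and with a limit of 5 FPKM. Sort1, a sorting receptor, was at 67.9 and 19.0 FPKM (-1.83) at a locus shared with Gm12525.

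Receptors of the 10 precursors' peptides were found for 27 genes, 24 of them above 0 FPKM in both genotypes. Of these 24, 13 were at least 2-fold lower in A2 SMA MNs and none was at least 2-fold higher, where 24.5% and 8.41% of all genes were. The median log2 ratio of the 24 was -1.25. Of the 10 that reached 1 FPKM in either genotype, 7 were at least 2-fold lower, where 22.4% of all genes past that limit were. The median of the 10 was -2.09. With a pseudocount of 1 FPKM 4 of the 10 were at least 2-fold lower, and their median was -0.79.

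For somatostatin, Sstr2 had 37.3 FPKM in the control line and 1.81 FPKM in A2 SMA (log2 ratio -4.36). Its locus spans 439 kb in the assembled annotation, against 6.70 kb for the gene in RefSeq, so the value may hold other transcripts, and it has the status FAIL, given where the calculation of Cuffdiff failed. Sstr3 was at 0.785 and 0.0830 FPKM, and Sstr1, Sstr4 and Sstr5 were under 0.5 FPKM in both. Sstr2 thus had the highest value of the 5 somatostatin receptors in both genotypes, with that limit.

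For CGRP and its relatives, Calcrl, the receptor that RAMP proteins turn into a CGRP or adrenomedullin receptor, was at 4.85 and 1.91 FPKM (-1.35). Ramp1, the partner that makes the CGRP receptor, was at 0.271 and 0.460 FPKM. The receptor was thus lower, while its CGRP partner was under 1 FPKM in both genotypes. Ramp3 was at 10.8 and 17.6 FPKM (0.70), and Ramp2, at a locus shared with Vps25, at 203 and 146 FPKM (-0.47, status FAIL). Calcr was at 0.158 and 0.266 FPKM, and Crcp, a receptor component that is also a subunit of RNA polymerase III, at 38.5 and 31.9 FPKM (-0.27).

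Receptors of neuropeptide Y and galanin were low. Npy1r, Npy2r and Npy5r were under 0.3 FPKM in both genotypes, Npy6r was listed at 0 in both, and Ppyr1 (Npy4r) was at 1.01 and 0.169 FPKM. Galr1 was at 0.130 and 0.124 FPKM and Galr2 at 0.713 and 0.660 FPKM. The enkephalin receptors Oprd1 and Oprm1 were under 0.4 FPKM in both genotypes, and Oprk1, the dynorphin receptor, was at 1.02 and 0.156 FPKM.

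Some receptors of precursors that were under 1 FPKM had higher levels. Adcyap1r1, the PACAP receptor, which binds VIP weakly, had 94.6 FPKM in the control line and 1.89 FPKM in A2 SMA, with the lowest log2 ratio of the list, -5.64. Adcyap1, the PACAP precursor, is not among the 10 and was itself at 18.2 and 0.671 FPKM. Tacr1, the substance P receptor, was at 10.2 and 0.974 FPKM (-3.38), and Vipr2 at 1.54 and 0.513 FPKM (-1.59).

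Peptidases that break down neuropeptides did not share this direction. Of 13 genes, none was at least 2-fold lower and 3 were at least 2-fold higher, with a median log2 ratio of 0.42. All 13 reached 1 FPKM in either genotype, and of all genes past that limit 22.4% were at least 2-fold lower and 6.83% at least 2-fold higher. The number of higher peptidases was 4 with centring, and 2 with a pseudocount of 1 FPKM, with a limit of 5 FPKM or without the status FAIL. Dpp4, which cleaves neuropeptide Y among other peptides, had 2.15 FPKM in the control line and 12.2 FPKM in A2 SMA (log2 ratio 2.50). Mme, neprilysin, which cleaves enkephalins and substance P, was at 3.60 and 9.84 FPKM (1.45, status FAIL), and Mmel1, a relative of neprilysin, was the third. The 5 most abundant peptidases were within 2-fold of the control. These were Npepps at 303 and 170 FPKM (-0.84, status FAIL), Ide at 68.2 and 91.4 FPKM (0.42, status FAIL), Thop1 at 67.2 and 89.3 FPKM (0.41), Prep at 66.2 and 62.3 FPKM (-0.09, status FAIL), with Ece1 at 44.7 and 28.8 FPKM (-0.63).

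**Figure D2:**
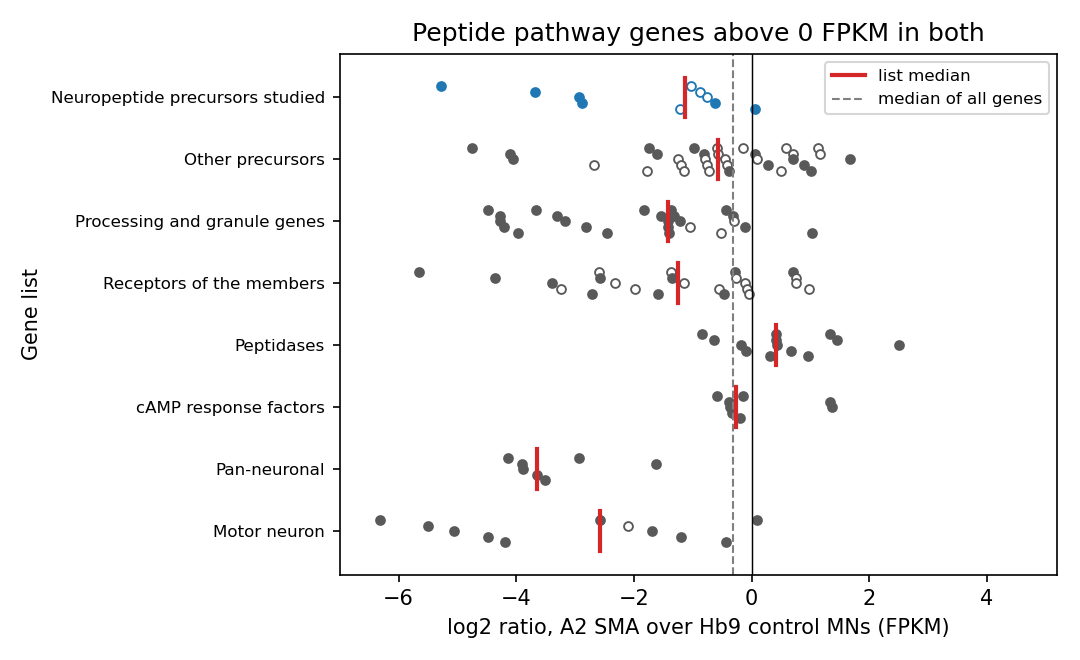
Log2 ratios (A2 SMA over Hb9 control MNs) of single genes above 0 FPKM in both genotypes, in rows by gene list, with filled points for genes of at least 1 FPKM in either genotype, open points for the others, red bars for list medians and a dashed line at the median of all genes (-0.31). The medians of the 10 precursors (-1.13, midway between the open points of Calcb and Vip), of the processing and granule genes (-1.43) and of the receptors (-1.25) lie to the left of that line, and that of the peptidases (0.42) to its right.

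Markers of neurons and of other cell types also differed between the sorted samples. For comparison with the counts of each list, 24.5% of all genes without a limit were at least 2-fold lower and 8.41% at least 2-fold higher. Of 7 pan-neuronal genes, 7 were at least 2-fold lower in A2 SMA MNs, with a summed level of 766 FPKM in the control line and 113 FPKM in A2 SMA and a median log2 ratio of -3.65. The most abundant were Stmn2 at 242 and 78.0 FPKM (status FAIL), Mtap2 at 218 and 14.5 FPKM and Elavl4 at 199 and 11.3 FPKM. The MN markers had a median of -2.57 and a summed level of 380 and 106 FPKM. Among the most abundant were Isl1 at 108 and 5.95 FPKM and Foxp1, at a locus shared with Eif4e3, at 47.1 and 34.9 FPKM.

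Set beside the pan-neuronal median, the log2 ratio of Sst differed from it by -0.04 and that of Cartpt by -1.62. Gal and Npy were 0.72 and 0.76 above it, Penk 3.04 above and Calca 3.72 above. The part of the neuronal markers in these ratios was not tested.

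Other cells that use these peptides include sensory, sympathetic and endocrine cells. Of 9 sensory neuron and neural crest markers, 6 were at least 2-fold lower (median -2.11, summed level 52.6 and 12.5 FPKM), and the more abundant included Pou4f1 at 9.06 and 5.34 FPKM and Ntrk2 at 7.86 and 1.82 FPKM. Scn10a, Trpv1 and Mrgprd, which mark nociceptors, were under 0.3 FPKM in both genotypes. Of 6 sympathetic and chromaffin markers, 3 were at least 2-fold lower and 1 was at least 2-fold higher (median -2.45, summed level 111 and 6.71 FPKM). These were led by Phox2a at 64.4 and 3.94 FPKM, also a factor of cranial MNs, by Th at 39.1 and 1.36 FPKM and by Dbh at 6.03 and 0.260 FPKM. The 3 markers that reached 1 FPKM in either genotype were all at least 2-fold lower (median -4.53). Pnmt, the higher one, was under 0.3 FPKM in both genotypes and had the status NOTEST.

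Of 8 endocrine pancreas and gut markers, 5 were above 0 FPKM in both genotypes and 4 of these at least 2-fold lower (summed level 184 and 14.9 FPKM). Nkx6-1, which MN progenitors also use, was the most abundant at 158 and 7.46 FPKM, and Neurog3 was at 10.5 and 4.12 FPKM. The defining genes Ins1, Gcg and Pax4 were listed at 0 FPKM in both genotypes. Ins2, the other insulin gene, was at 0.580 and 0.226 FPKM, and Pdx1 at 0.0399 and 0.0783 FPKM.

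Of 14 spinal interneuron markers, 11 were at least 2-fold lower (median -3.23, summed level 107 and 25.7 FPKM), and the most abundant were Lhx1 at 21.2 and 0.696 FPKM, Gata2 at 20.7 and 3.996 FPKM and Gata3, at a shared locus, at 15.8 and 4.86 FPKM. Of 7 neural progenitor markers, 6 were at least 2-fold lower (median -5.30, summed level 833 and 38.7 FPKM). Fabp7 led them at 553 and 5.52 FPKM, before Nes at 66.3 and 7.07 FPKM (status FAIL) and Hes5 at 65.3 and 0.349 FPKM. The 8 pluripotency markers had a median of 2.65 and a summed level of 221 and 1474 FPKM, led by Pou5f1 at 98.3 and 775 FPKM, Nanog at 41.4 and 236 FPKM and Esrrb at 25.6 and 179 FPKM (status FAIL). The part of each of these cell types in the levels of the precursors was not tested.

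Several precursor genes are textbook targets of cAMP signaling, through the cAMP response element (CRE), the sequence TGACGTCA, so the upstream sequences of the precursors were searched for it. RefSeq (build GRCm38.p6) gave promoter windows for 8 of the 10: Calca, Cartpt, Gal, Npy, Pdyn (2 windows), Sst, Tac1 and Vip. In the 250 bases before the start, TGACGTCA was found in 2 of the 8, Cartpt and Sst, and in 1.55% of all 32851 windows of that length. The shorter TGACG, on either strand and including those inside TGACGTCA, was found in 5 of the 8 (Calca, Cartpt, Sst, Tac1 and Vip) and in 17.8% of all windows. Gal and Npy, with log2 ratios of -2.93 and -2.89, held neither sequence, nor did Pdyn (-0.76). Among the processing and granule genes, 19 had a window, and 3 of these, Chgb, Pcsk1 and Scg2, held TGACGTCA. Their log2 ratios were -4.47, -0.43 and -4.28.

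The last 150 bases before the start are shown for Cartpt and Sst, which had the lowest ratios of the 10 precursors, and for Calca, which was not lower. Capitals mark TGACGTCA in Cartpt and Sst, where it begins 112 and 48 bases before the start, and TGACG in Calca. All are on the minus strand of GRCm38.p6, at chr13:99900684-99900833, chr16:23890845-23890994 and chr7:114636358-114636507, a later build than that of the loci above.
Cartpt: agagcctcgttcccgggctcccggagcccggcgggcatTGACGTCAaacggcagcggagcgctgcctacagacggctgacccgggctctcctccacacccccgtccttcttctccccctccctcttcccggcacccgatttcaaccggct
Sst: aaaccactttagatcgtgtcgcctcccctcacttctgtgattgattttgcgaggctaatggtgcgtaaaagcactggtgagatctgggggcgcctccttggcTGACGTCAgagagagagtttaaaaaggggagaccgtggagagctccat
Calca: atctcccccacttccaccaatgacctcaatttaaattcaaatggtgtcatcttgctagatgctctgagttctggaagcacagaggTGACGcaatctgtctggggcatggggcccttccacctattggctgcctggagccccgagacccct
A match is a description of the letters and not of binding. Whether a match has a part in the ratios was not tested.

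The factors that act at this element, with Rest, a repressor of neuronal genes in other cells, formed a list of 8 genes. None of them was at least 2-fold lower and 2 were at least 2-fold higher in A2 SMA MNs (median log2 ratio -0.27, or 0.02 with centring). All 8 reached 1 FPKM in either genotype, and of all genes past that limit 22.4% were at least 2-fold lower and 6.83% at least 2-fold higher. Atf2 had 78.8 FPKM in the control line and 68.9 FPKM in A2 SMA (status FAIL). Creb1 was at 49.3 and 32.8 FPKM (-0.59), and Crtc2, at a locus shared with Slc39a1, at 46.9 and 36.0 FPKM (-0.38). The 2 higher genes were Atf1, at 10.3 and 25.9 FPKM (1.34), and Rest, at 16.1 and 41.4 FPKM (1.37, status FAIL).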

How the data were processed

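Single-end RNA sequencing covered 3 Hb9 control and 3 A2 SMA samples of MNs sorted by FACS. By the submitters' processing notes and the methods, FastQC 0.10.1 and CutAdapt preceded mapping by TopHat 2.04 (NCBI m37), assembly by Cufflinks and the comparison by Cuffdiff. The deposited FPKM values are the gene-level output of Cuffdiff, which combines the samples of a genotype, so no test over samples, no SD and no depth could be computed. The fold change, test statistic, p and q columns hold the authors' own comparison and were not used. The status column was read.

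Symbols were split at commas, and the entry with the highest FPKM was kept for each symbol. Locus starts were raised by 1, because 3316 of 24782 loci then have the RefSeq gene length, against 284 as listed. Log2 ratios were formed without a pseudocount, and none was formed where either value is 0. Called means at least 2-fold. Named genes were the 10 precursors, Smn1, Mnx1, the 5 most abundant, 2 lowest and 2 highest ratios of each pathway list, receptors of precursors that reached 1 FPKM, the 3 most abundant markers of each cell type list, and the 3 genes nearest to the most abundant precursor. Chat, Chga, Scg2, Pcsk1, Pcsk2, Cpd, Mmel1, Pnoc, Oprk1, Tacr1, Vipr2, Scn10a, Trpv1, Mrgprd, Pnmt, Ins2 and Pdx1 were chosen after their values were seen. Galr3, Slc18a3, Tubb3 and Sox1 were not analysed here. Values of 3 further marker genes are not reported here, and these genes stay in the counts, medians and sums of their lists. The precursors and lists were chosen with earlier results of these data known. Calculations used Python 3.11.15 and figures matplotlib 3.10.9, and the counting of calls was tested on simulated data. Alternatives were pseudocounts of 0.1 and 1 FPKM, centring on the median gene, no limit or 5 FPKM, a 4-fold limit, leaving out the status FAIL, summing entries of a symbol and, chosen after seeing the data, leaving out loci of several symbols and applying the limits of FPKM, fold and status to the 10 precursors.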

Additional observations from a re-analysis of the deposited data

How the results depend on the processing

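The count of precursors at least 2-fold lower among those past the FPKM limit (4) stayed within 1.5 times of that value in each of the alternatives, and none of the 10 was at least 2-fold higher in any of them. Over all 10 precursors without an FPKM limit, 6 were at least 2-fold lower, and 4 with either pseudocount or centring. The direction of each of the 10 precursors was the same with pseudocounts, centring and summed entries. Without an FPKM limit the numbers at least 2-fold lower were 10 of 33 other precursors, 13 of 24 receptors and 5051 of 20595 genes in all, with 1733 genes higher. At 5 FPKM 3 of 6 receptors were at least 2-fold lower, as were 2314 of 11556 genes in all, with 556 genes higher. With a pseudocount of 1 FPKM 4 of 10 receptors and 2597 of 14980 genes in all were at least 2-fold lower, with 656 genes higher. At a 4-fold limit 3 of 14 other precursors, 10 of 22 processing and granule genes and 1326 of 14926 genes in all were lower, and 268 genes in all were higher. Centring on the median gene gave 2461 lower and 1558 higher genes, so that the share of higher ones went from 23.4% to 38.8%. By construction, the FPKM and fold limits change which genes are admitted or counted, a pseudocount draws low genes toward 0, and centring moves every ratio by the same amount. At a 4-fold limit 1 of 13 peptidases and none of the other precursors, processing genes or cAMP response factors were higher. Without the status FAIL 1 of 6 cAMP response factors was at least 2-fold higher, as were 902 of 12840 genes in all. At 5 FPKM the median log2 ratio was -1.21 for other precursors and -2.46 for processing genes. Some alternatives, named with the methods, were chosen after seeing the data. No paired analysis was possible because the table holds 1 pooled value per genotype, and for the same reason no sample could be left out.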

Other observations

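Cartpt, the precursor with the lowest ratio, lies 224 kb from Smn1 on chromosome 13 of NCBI m37. This position was looked at after the values were seen. Within 1 Mb of Smn1 on either side, 18 other genes reached 1 FPKM in either genotype. At least 2-fold lower were 3 of them, Cartpt, Serf1 (27.0 FPKM in the control line and 6.77 FPKM in A2 SMA) and Mtap1b, which encodes a neuronal microtubule protein (150 and 19.8 FPKM). Among all 14926 genes past the same limit 22.4% were, so this count is no result about the region. The other 15 had log2 ratios between -0.40 and 0.59. Serf1, Bdp1 and Mccc2 lie between Cartpt and Smn1. Of these Bdp1 had 15.7 and 14.0 FPKM and Mccc2 had 25.8 and 22.8 FPKM. The median log2 ratio of the 18 genes was 0.16. Whether the position has a part in the level of Cartpt was not tested.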
